A study of Homo sapiens with 3 samples.

Results

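The miR-21 hairpin gives 2 named products, hsa-miR-21-5p (the guide arm) and hsa-miR-21-3p (the passenger arm), and both were found by name among the 1921 mature miRNA names counted in small RNA libraries of the human hepatocellular carcinoma (HCC) cell line HCCLM3. The line was grown in DMEM and was represented by 3 strains with 1 library each. The parent was labelled as low in metastasis, subclone1 as more metastatic with a preference for lung, and subclone2 as metastatic to lung and celiac lymph node. The study's text describes subclones grown from single cells that were taken from metastases of a fluorescent HCCLM3 derivative, and its parental line is described there as highly metastatic, which differs from the label of the parent library. The labels do not tell which clone became subclone1 or subclone2, and each library stands for 1 culture, so a difference between strains and one between libraries cannot be told apart. In such bulk RNA, fewer cells with a miRNA and less of it per cell cannot be told apart either.

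A miRNA hairpin is cut by Drosha and Dicer into a short duplex, of which the guide strand is loaded into an Argonaute protein and represses mRNAs that pair with its seed, while the passenger strand is mostly degraded. miR-21-5p is a classical oncogenic miRNA in liver and many other tumours and is known for repressing the tumour suppressor PDCD4. Its gene is transcribed from a promoter of its own within the VMP1 gene, under control of STAT3 and AP-1.

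The RefSeq hairpin MIR21 (GRCh38.p14, plus strand, chr17:59841266-59841337) is 72 bases long and is shown to place the guide arm, in capitals, within its precursor. The mature sequences of hsa-miR-21-5p and hsa-miR-590-5p are shown because both have the same seed, bases 2 to 8, in capitals.
MIR21 hairpin: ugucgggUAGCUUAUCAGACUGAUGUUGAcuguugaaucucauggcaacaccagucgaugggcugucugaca
hsa-miR-21-5p: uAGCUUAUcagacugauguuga
hsa-miR-590-5p: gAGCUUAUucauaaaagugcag
The guide arm spans bases 8 to 29 of the hairpin (chr17:59841273-59841294). In the fold predicted by RNAfold, 19 of its 22 bases were paired. In the annotation of GENCODE the hairpin lies inside the VMP1 gene (chr17:59707192-59842255, plus strand). It overlaps an exon of 1 VMP1 transcript, of the retained-intron class, and no annotated coding sequence or UTR of VMP1. The longest run of bases that the guide arm shares with another listed miRNA was 9 bases among 1576 names with a sequence, and no other name held the same counts as either arm in every library.

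The libraries held 7902438 counts in the parent, 3570864 for subclone1 and 4568075 for subclone2. A count of 0 therefore allowed up to 0.380, 0.840 and 0.657 CPM (the count divided by the library total and scaled to 1e6), taking 3 counts as the limit. All intervals given here are 95% intervals of counting error only, since each strain had 1 library and the count tables hold no molecular identifiers. No test between strains was possible. As a check of the cell type, hsa-miR-122-5p, the defining miRNA of hepatocytes, was nearly absent, with 53, 19 and 18 counts. hsa-miR-192-5p, which is also rich in liver, had 18528, 60246 and 69068 CPM. Marker miRNAs of blood cells, endothelium and fibroblasts summed to at most 2.24 CPM per list in every library. Among the latter, hsa-miR-199a-5p and hsa-miR-214-3p were at 0 throughout, whereas hsa-miR-143-3p had 8, 1 and 1 counts and hsa-miR-145-5p 0, 1 and 0. hsa-miR-199a-3p, which is outside that list, had 31, 6 and 9 counts. The striated muscle list summed to 7.59, 23.2 and 7.88 CPM, mostly hsa-miR-1, and the neuron list to 1946, 1597 and 1206 CPM, nearly all hsa-miR-128, whereas hsa-miR-124-3p had 0, 1 and 0 counts. hsa-miR-885-5p, also of hepatocytes, was at 0.

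hsa-miR-21-5p was among the most abundant miRNAs of every strain. It had 313502 counts in the parent, 115012 for subclone1 and 150494 for subclone2. Scaled to the library total, these were 39672 CPM in the parent (interval 39536 to 39808), 32208 CPM for subclone1 (32026 to 32392) and 32945 CPM for subclone2 (32781 to 33109). The parent was thus the highest library, and the subclones lay close to each other, although no intervals overlapped. The guide arm took 3.97% of all counts in the parent, 3.22% for subclone1 and 3.29% for subclone2. Since the let-7 family with miR-98 held between 66.9% and 69.1% of each library, the share was also taken of the counts outside that family. There hsa-miR-21-5p made up 11.98% in the parent, 9.78% for subclone1 and 10.7% for subclone2.

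By rank, hsa-miR-21-5p was the 5th most abundant miRNA of the parent and the 7th of both subclones. In the parent it stood between hsa-let-7b-5p (59975 CPM) and hsa-let-7i-5p (38363 CPM). In both subclones hsa-let-7i-5p stood directly above it, with 33314 and 34493 CPM, so the order of these neighbours was turned. The intervals of hsa-miR-21-5p and hsa-let-7i-5p did not overlap in any library, but their levels differed by little and the count of a miRNA also depends on how well its ends ligate. The other place was lost to hsa-miR-192-5p, which counted 18528 CPM in the parent and stood above hsa-miR-21-5p in both subclones. Without the let-7 family, hsa-miR-21-5p ranked 2nd in the parent, behind hsa-miR-222-3p, and 3rd in the subclones.

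**Figure D1:**
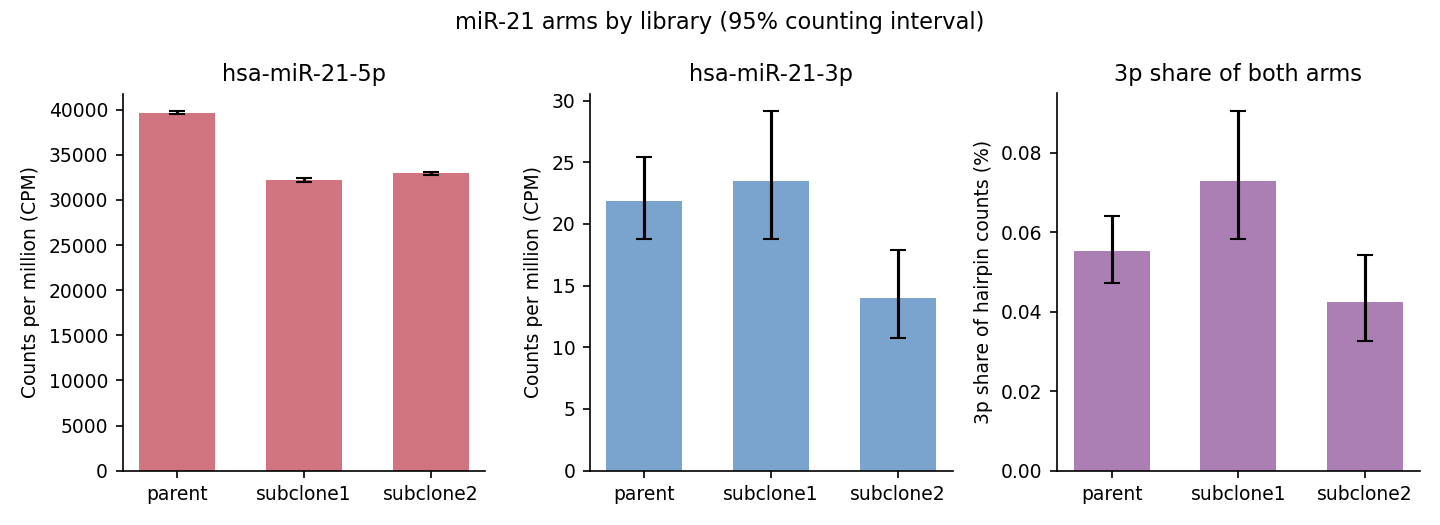
Level of hsa-miR-21-5p (left) and hsa-miR-21-3p (middle) in CPM, and the share of hsa-miR-21-3p among the counts of both arms in percent (right), in the 3 libraries; bars are the values of single libraries and whiskers the 95% counting intervals. The guide arm was highest in the parent (39672 CPM), whereas the passenger arm and its share were lowest in subclone2 (14.0 CPM and 0.0425%).

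hsa-miR-21-3p, the passenger arm, was a minor product. It had 173 counts in the parent, 84 for subclone1 and 64 for subclone2. This corresponded to 21.9 CPM (interval 18.8 to 25.4), 23.5 CPM (18.8 to 29.1) and 14.0 CPM (10.8 to 17.9). The parent and subclone1 overlapped widely, and subclone2 was the lowest, with an interval below both. Its rank was 145 of 743 detected miRNAs in the parent, 147 of 670 for subclone1 and 165 of 675 for subclone2. Within counting error the rank could lie between 140 and 154, 132 and 160, and 149 and 179. Neighbours in this order, such as hsa-miR-421 and hsa-miR-215 in the parent, had intervals that overlapped that of hsa-miR-21-3p and cannot be ordered at this depth.

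**Figure D2:**
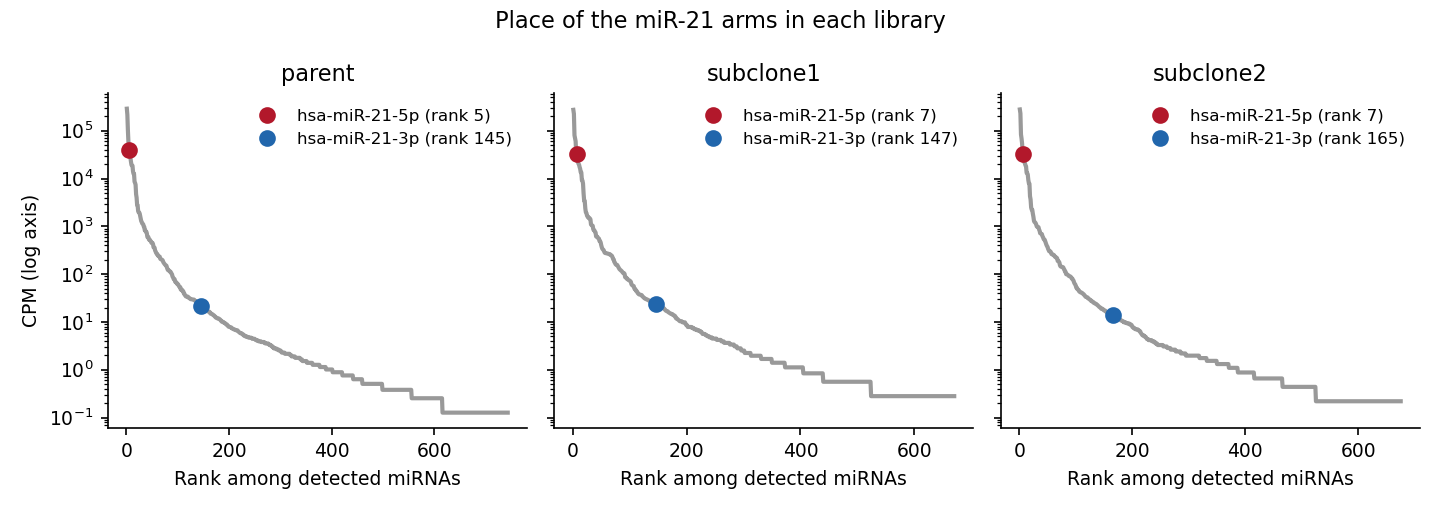
CPM (log axis) of every detected miRNA against its rank in the parent, subclone1 and subclone2 libraries (grey), with both miR-21 arms marked. The guide arm sat on the steep left end at rank 5 or 7, the passenger arm on the slope at ranks 145 to 165.

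The balance of the arms was examined next, since the ratio of 2 products of 1 hairpin within a library does not depend on the scaling. hsa-miR-21-5p exceeded hsa-miR-21-3p by 1812 to 1 in the parent (interval 1561 to 2116), 1369 to 1 for subclone1 (1106 to 1717) and 2351 to 1 for subclone2 (1841 to 3054). Expressed as a share, hsa-miR-21-3p made up 0.0552% of the hairpin's counts in the parent (0.0472 to 0.0640), 0.0730% for subclone1 (0.0582 to 0.0903) and 0.0425% for subclone2 (0.0327 to 0.0543). The balance was therefore least one-sided in subclone1 and most one-sided in subclone2, and only the intervals of these libraries did not overlap.

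Between subclone2 and subclone1 the arm ratio differed by 1.71-fold, a log2 difference of 0.78 (interval 0.31 to 1.25). Between subclone1 and the parent the log2 difference was -0.41 (-0.78 to -0.03), and between subclone2 and the parent 0.37 (-0.04 to 0.78). A change of arm ratio was called when it was at least 2-fold with an interval excluding 1, and miR-21 was called in none of the contrasts at this limit. A limit of 1.5-fold would call the difference between the subclones, as it would for 16 of the 73 hairpins compared there. For the background at 2-fold, 12.7% of 79 hairpins with both arms counted were called for subclone1 against the parent. The shares were 11.7% of 77 for subclone2 against the parent and 12.3% of 73 between the subclones. Intervals excluding 1 without a minimum size were found in 35.4%, 32.5% and 35.6% of these hairpins. By the estimates alone, 47 of 79, 45 of 77 and 15 of 73 hairpins shifted more than miR-21. Some of them rested on few minor-arm counts, such as miR-191 in subclone1 against the parent (log2 1.56, interval -0.87 to 3.99). Only the shift between the subclones was well above the median size of 0.44 over all hairpins.

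The arm balance of miR-21 was then set beside that of hairpins of like abundance. Here only hairpins with both a 5p and a 3p name were ranked, which leaves out some abundant miRNAs such as hsa-let-7f-5p and hsa-miR-320a. Within the 10 most abundant of these hairpins in the parent, 7 had a smaller minor-arm share than miR-21, including let-7a (0.00341%), miR-192 (0.00341%) and miR-222 (0.0119%). A larger share was found in 2, miR-221 with 7.996% and miR-423 with 1.89%. The same numbers, 7 lower and 2 higher, were found in subclone1, and 8 lower and 1 higher in subclone2, all with intervals apart from that of miR-21. The median minor-arm share of all such hairpins with at least 10 CPM was 2.09% in the parent, 2.66% for subclone1 and 3.23% for subclone2, far above that of miR-21. Because some families are made from several hairpins whose 3p arms carry names of their own (let-7a, for example), their shares are not strictly those of 1 precursor. By its minor arm alone, hsa-miR-21-3p was the 22nd, 23rd and 25th most abundant minor arm of 108, 108 and 107 hairpins.

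As a comparison with another guide and passenger pair, miR-22 used its 3p arm as the major product, and its 5p arm took 12.0% of the hairpin in the parent, 9.30% for subclone1 and 9.88% for subclone2. The passenger arm of miR-22 had 31.6, 27.7 and 24.7 CPM, somewhat more than hsa-miR-21-3p, while its guide hsa-miR-22-3p had only 232, 270 and 226 CPM. Per guide count, hsa-miR-21-3p was thus far rarer, although the levels of the passenger arms themselves differed by less than 2-fold in each library. As 5p over 3p, miR-22 changed by log2 -0.41 (interval -0.76 to -0.05) in subclone1 against the parent, beside -0.41 for miR-21. In subclone2 against the parent miR-22 had -0.31 (-0.65 to 0.03) beside 0.37, and between the subclones 0.09 (-0.31 to 0.50) beside 0.78.

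**Figure D3:**
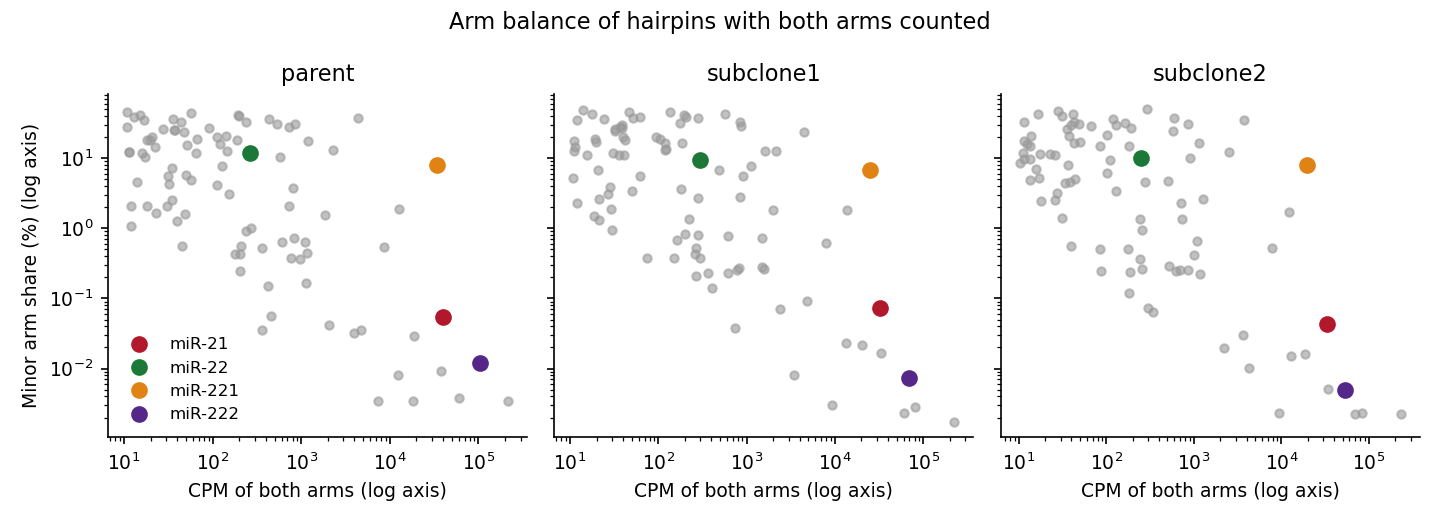
Share of the less abundant arm in percent (log axis) against the summed CPM of both arms (log axis), 1 point per hairpin with at least 10 CPM and both arms counted, in each library. The miR-21 hairpin lay near 0.0552%, 0.0730% and 0.0425%, above miR-222 and far below miR-221 and miR-22.

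To ask how the guide arm differed between strains, each subclone was compared with the parent and with the other subclone, by the log2 ratio of CPM with 0.5 counts added to each library. hsa-miR-21-5p was 0.812 times as abundant in subclone1 as in the parent (log2 -0.30, interval -0.31 to -0.29). In subclone2 it was 0.830 times as abundant (log2 -0.27, interval -0.28 to -0.26). Between the subclones the log2 ratio was 0.03 (0.02 to 0.04). By this scaling, both subclones had less of the guide arm than the parent and the difference between them was minute. No ratio reached 2-fold, so hsa-miR-21-5p was not called in any contrast.

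Against the whole library this ratio was moderate. The rule of at least 2-fold with an interval excluding 1 called 13.0% of 192 miRNAs for subclone1 against the parent, 10.7% of 187 for subclone2 against the parent and 5.76% of 191 between the subclones. Intervals excluding 1 alone were found in 68.8%, 69.5% and 59.7%, so a narrow interval did not set hsa-miR-21-5p apart. In subclone1 against the parent, 48 of the 192 miRNAs had a lower ratio than hsa-miR-21-5p, and 104 were farther from 1. In subclone2 against the parent, 73 of 187 were lower and 109 farther from 1. The median log2 ratio of all miRNAs was 0.02, -0.15 and -0.17 in the 3 contrasts, which left hsa-miR-21-5p at -0.32, -0.11 and 0.20 relative to the median.

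The size of the decrease in subclone2 depended on the scaling. It was -0.10 with TMM factors, and -0.0036 when 6 miRNAs often used as references set the scale, with an interval that included 0. In subclone1 the corresponding values were -0.36 and -0.20. Between the subclones they were 0.27 and 0.19, so the small difference of 0.03 also rested on the scaling by library total. Against single reference miRNAs the picture was mixed. Relative to hsa-miR-103a-3p, hsa-miR-21-5p stood at 2.82 in the parent, 2.03 for subclone1 and 2.51 for subclone2. Relative to hsa-miR-191-5p it stood at 8.43, 9.44 and 9.04, which is the opposite order. Of the 6 references, 4 gave a lower ratio in subclone1 than in the parent and 3 gave a lower ratio in subclone2.

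The passenger arm was compared in the same way. The log2 ratio of hsa-miR-21-3p was 0.11 in subclone1 against the parent (interval -0.29 to 0.49), a difference that was not detectable at this depth. In subclone2 it was -0.64 against the parent (-1.08 to -0.22) and -0.74 against subclone1 (-1.24 to -0.26). The level in subclone2 was thus 0.643 times that of the parent and 0.597 times that of subclone1, with intervals that reach beyond 2-fold. Scaled to the library total, both arms were thus lower in subclone2 than in the parent, and the interval of the passenger arm held the ratio of the guide arm. The log2 ratio of the guide arm was -0.0036 (interval -0.013 to 0.0052) when the reference miRNAs set the scale. At 2-fold the passenger arm was called in none of the contrasts, whereas a 1.5-fold limit would call both of these differences of subclone2. That limit called 50 of 187 miRNAs in subclone2 against the parent and 36 of 191 between the subclones. Between the subclones, 17 of 191 miRNAs had a lower ratio than hsa-miR-21-3p. With the reference miRNAs as scale, the interval of subclone2 against the parent included 0 (-0.37, interval -0.82 to 0.04).

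**Figure D4:**
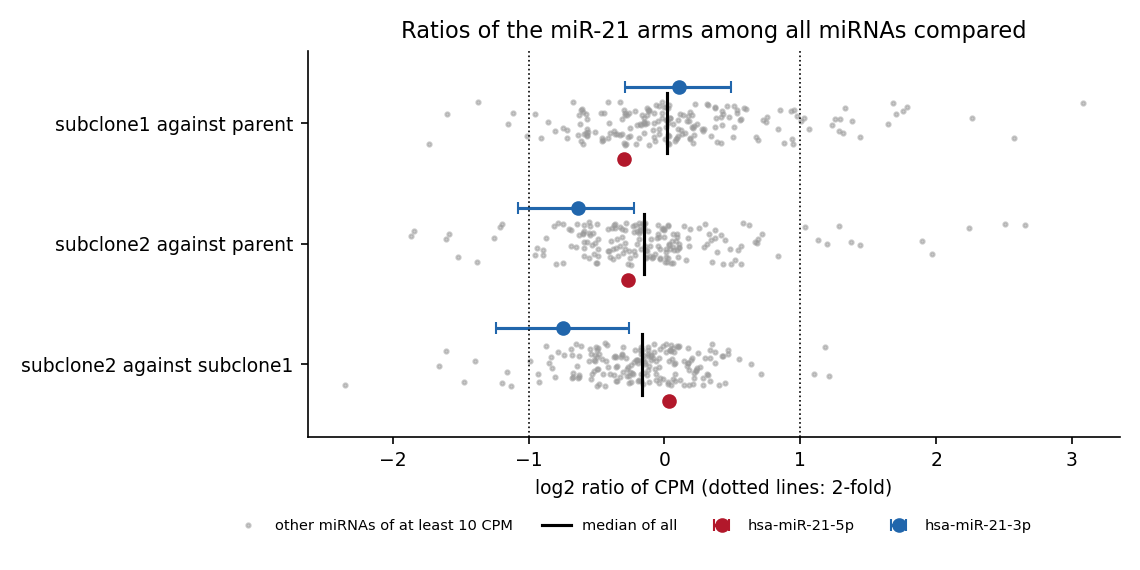
log2 ratio of CPM of hsa-miR-21-5p (red) and hsa-miR-21-3p (blue) with 95% counting intervals, beside all other miRNAs averaging at least 10 CPM (grey, 1 point each) and the median of all (black bar), for the 3 contrasts. Both arms lay inside the dotted 2-fold lines in every contrast, and the arms were farthest apart between the subclones (0.03 and -0.74).

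The seed relative hsa-miR-590-5p, which would reach the same seed matches as the guide arm, was rare. It had 39 counts in the parent (4.94 CPM, interval 3.51 to 6.75), 9 for subclone1 (2.52 CPM, 1.15 to 4.78) and 12 for subclone2 (2.63 CPM, 1.36 to 4.59). The parent had the highest level, but the log2 ratios of -0.91 (-2.20 to 0.10) and -0.87 (-1.98 to 0.05) had intervals that included 0. hsa-miR-21-5p made up nearly the whole seed family, since hsa-miR-590-5p held 0.0124% of its counts in the parent, 0.00782% for subclone1 and 0.00797% for subclone2.

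Neighbours of MIR21 on chromosome 17 were much less abundant. Within 5 Mb on either side, 9 other hairpins are annotated, and 13 of their mature products were listed, of which 8 were detected. hsa-miR-301a-5p, from a hairpin at -0.690 Mb from MIR21, led them with 14.7 CPM in the parent, 9.80 for subclone1 and 14.4 for subclone2. Its other arm, hsa-miR-301a-3p, had 26, 5 and 5 counts, and hsa-miR-454-3p, from the hairpin next to it, had 20, 5 and 5. The 5p arm of that hairpin, hsa-miR-454-5p, had 15, 7 and 17 counts. hsa-miR-142-3p, a miRNA of blood cells from the same region, was at 0 in every library, and hsa-miR-142-5p had 2, 1 and 0 counts.

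The miRNAs whose pattern was most like that of each arm were sought among 88 miRNAs averaging at least 100 CPM, by the distance between their pairs of log2 ratios against the parent. This likeness rests on 3 libraries. Nearest to hsa-miR-21-5p were hsa-miR-99a-5p (-0.29 in subclone1 and -0.18 in subclone2), hsa-miR-101-3p (-0.17 and -0.33), hsa-miR-92a-3p (-0.31 and -0.41), hsa-let-7i-5p (-0.20 and -0.15) and hsa-miR-15b-5p (-0.27 and -0.42). Nearest to hsa-miR-21-3p was hsa-miR-181a-5p, with log2 ratios of 0.08 and -0.59, followed by hsa-miR-181b-5p (0.00014 and -0.55), hsa-miR-26b-5p (-0.02 and -0.55), hsa-miR-378a-3p (-0.08 and -0.75) and hsa-miR-193b-3p (0.34 and -0.49). The sets of names were different for the arms, and the wide interval of hsa-miR-21-3p leaves its set loosely placed.

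Next, hsa-miR-21-5p was set beside 20 other miRNAs described as oncogenic in liver cancer, of which 16 had at least 10 CPM. In subclone1 against the parent, 11 of these 16 were lower, with a median log2 ratio of -0.39, and the median of all miRNAs was 0.02. In subclone2 15 of 16 were lower, with a median of -0.40 against -0.15 for all. Between the subclones 13 of 16 were lower in subclone2, with a median of -0.33 against -0.17 for all. Of the 6 reference miRNAs, which include hsa-miR-25-3p and hsa-miR-93-5p of this list, 3, 6 and 4 were lower in these contrasts. Scaled to the library total, the guide arm of miR-21 thus went in the direction of most of this list against the parent. Its change was smaller in size than the list's median in both subclones. These directions depend on the scaling, since the reference miRNAs as scale raise every log2 ratio of subclone2 against the parent by 0.26. The guide arm then stood at -0.0036. Past the rule of size were 3 of 16 in subclone1 (hsa-miR-210 higher, hsa-miR-17-5p and hsa-miR-20a-5p lower), 3 of 16 in subclone2 (hsa-miR-17-5p, hsa-miR-20a-5p and hsa-miR-19b-3p, all lower) and 1 of 16 between the subclones (hsa-miR-210, lower in subclone2). Over all miRNAs the shares called were 13.0%, 10.7% and 5.76%, so the count between the subclones was near the background, and the others were 3 names each. Several names of the list come from shared clusters and are not independent.

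The abundant oncogenic pair hsa-miR-221-3p and hsa-miR-222-3p, which repress the cell cycle inhibitor p27, differed from hsa-miR-21-5p in the size of their decrease. hsa-miR-222-3p had 104085 CPM in the parent, 68715 for subclone1 and 53755 for subclone2. hsa-miR-21-5p therefore stood at 0.381 of hsa-miR-222-3p in the parent (interval 0.380 to 0.383), 0.469 for subclone1 (0.465 to 0.472) and 0.613 for subclone2 (0.609 to 0.617). Its ratio to hsa-miR-221-3p was 1.25, 1.39 and 1.83. These ratios within a library do not depend on the scaling, and hsa-miR-21-5p gained on both miRNAs in either subclone.

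**Figure D5:**
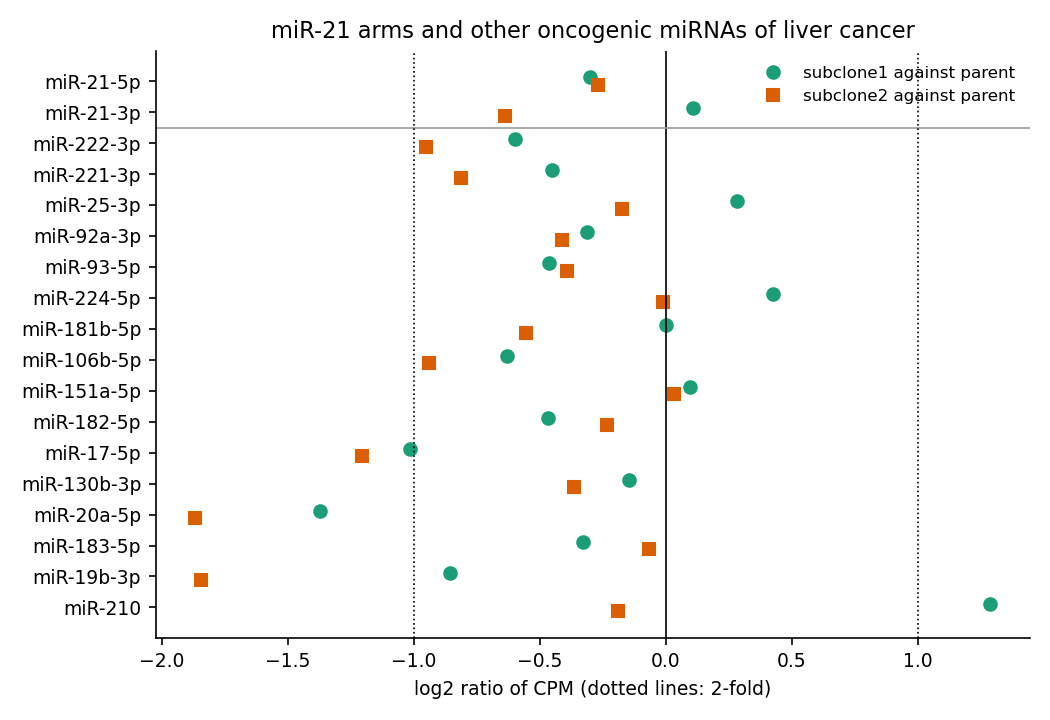
log2 ratio of CPM against the parent in subclone1 (circles) and subclone2 (squares) for both miR-21 arms (above the grey line) and the 16 oncogenic miRNAs of liver cancer with at least 10 CPM, ordered by their level in the parent. hsa-miR-21-5p lay at -0.30 and -0.27, nearer to 0 than hsa-miR-222-3p and hsa-miR-221-3p.

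In a list of 10 miRNAs known to be induced by STAT3, AP-1 or NF-kB, the factors that also drive MIR21, 7 had at least 10 CPM, and 4 of these 10 names are shared with the oncogenic list beside hsa-miR-155-5p, which had 0, 1 and 0 counts. Their median log2 ratio was 0.00014 in subclone1 and -0.55 in subclone2 against the parent. The list was heterogeneous. hsa-miR-146a-5p, a target of NF-kB, was called higher in both subclones (1.07 and 2.24), and its near relative hsa-miR-146b-5p was called lower in subclone2 (-1.20). These were 1 of 7 and 2 of 7 calls, beside 13.0% and 10.7% over all miRNAs. Among 18 tumour-suppressive miRNAs of liver cancer, 11 had at least 10 CPM and had a median of -0.02 in subclone1 and -0.23 in subclone2, where the medians of all miRNAs were 0.02 and -0.15. The call rule was passed by 1 of them in 1 contrast, hsa-miR-34a-5p (a p53 target) in subclone2 against the parent, with -1.61. This count was near the 10.7% of all miRNAs called in that contrast.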

How the data were processed

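Per the labels, Trizol extracts were made into libraries with the TruSeq Small RNA kit of Illumina (input 1 ug). Adapters are joined to both RNA ends, so levels of different miRNAs carry ligation bias. The authors deposited raw read counts per mature miRNA name, 1 library per strain. The submitters' processing notes name CASAVA 1.4 and hg19. Trimming, aligner, miRBase release and the handling of shared reads are not given in the sources used here. Sequences and coordinates are from RefSeq (GRCh38.p14) and GENCODE 29, not from the count tables. The RefSeq table held 1576 of the 1921 listed names.

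Counts were scaled to the library total. A contrast kept the miRNAs that averaged 10 CPM or more in its 2 libraries. Arm ratios were compared for hairpins whose arms reached 10 CPM together and whose minor arm had at least 10 counts over both libraries. Intervals were Clopper-Pearson for shares, conditional binomial for ratios, and, for arm ratio changes, normal on the log scale from the 4 counts with 0.5 added. A call needed at least 2-fold and an interval excluding 1. It compares libraries, not conditions, and no p-value was computed. The procedure was run on simulated counts with known ratios, known library totals and counting error only. Such a run cannot test the spread between cultures or the scaling. TMM factors came from edgeR 4.0.16, the fold from ViennaRNA 2.7.2, the intervals from scipy 1.17.1. Named miRNAs were the arms, same-seed names, rank neighbours, the 5 nearest patterns per arm, the 5 hairpins nearest in arm ratio, the 3 most abundant minor arms, hairpins within 5 Mb, and members of the lists. The miR-21 arms and the lists were chosen with earlier results of these data known.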

Additional observations from a re-analysis of the deposited data

How the results depend on the processing

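No paired analysis was possible because every strain had a single library, which also leaves no replicate to drop. Over 9 ratios of the miR-21 arms and 36 values under other settings, 25 stayed inside the counting interval, 11 left it, 0 changed sign and 0 changed a call at 2-fold. All 11 were scalings of hsa-miR-21-5p. For subclone1 against the parent its log2 ratio was -0.36 with TMM factors, -0.37 with median-of-ratios factors and -0.20 with 6 reference miRNAs as scale. For subclone2 against the parent these were -0.10, -0.12 and -0.0036, and -0.17 with the total taken without the let-7 family. Between the subclones they were 0.27, 0.25, 0.19 and 0.13. The ratios moved by construction, since a scaling shifts all miRNAs of a contrast alike: by -0.06, 0.17 and 0.23 with TMM, -0.07, 0.15 and 0.21 with median of ratios, 0.01, 0.10 and 0.09 without let-7, and 0.11, 0.26 and 0.16 with the references. A limit of 1.5-fold, applied to the 9 ratios after seeing the data, called 3 of them: hsa-miR-21-3p in subclone2 against the parent (-0.64) and against subclone1 (-0.74), and the arm ratio between the subclones (0.78). In these contrasts the same limit called 50 of 187 and 36 of 191 miRNAs, and 16 of 73 arm ratios. Ranks without the let-7 family were 2, 3 and 3 for the guide arm and 136, 138 and 156 for the passenger arm.

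The number of miRNAs called (25, 20 and 11) was 7, 5 and 2 with a minimum of 100 CPM, 67, 75 and 33 with no minimum, 56, 50 and 36 at 1.5-fold, and 3, 3 and 1 at 4-fold. Arm ratio calls (10, 9 and 9) were 5, 4 and 6 with 100 CPM, 4, 6 and 4 with a minor arm of at least 50 counts, and 20, 18 and 16 at 1.5-fold. The depth of the passenger arm, 64 to 173 counts, limits its ratios to about the width of the intervals given.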

Other observations

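The hairpins whose arm ratio in the parent came nearest to that of miR-21 were miR-340, miR-629, miR-146b, miR-30d and miR-100, all with a dominant 5p arm. Of these, 3 (miR-340, miR-629 and miR-146b) had 0 counts of the 3p arm in the parent, so their place rests on the 0.5 counts added. miR-30d, the deepest of them, had 16476 counts of the 5p arm and 7 of the 3p arm in the parent (0.0425%), 8489 and 6 in subclone1 (0.0706%), and 10139 and 2 in subclone2 (0.0197%). Its shares stood in the same order over the libraries as those of miR-21, on far fewer passenger counts and with intervals that overlapped.

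The most abundant minor arms were those of miR-221, miR-25 and miR-92b in every library. hsa-miR-221-5p had 2756 CPM in the parent, 1677 for subclone1 and 1585 for subclone2. hsa-miR-25-5p had 1633, 1069 and 1303 CPM, and took 36.9% of its hairpin in the parent, 23.95% for subclone1 and 34.5% for subclone2. The share of hsa-miR-25-5p was thus lowest in subclone1, the library in which that of hsa-miR-21-3p was highest. These shares are of opposite arms, however. As 5p over 3p, the log2 change in subclone1 against the parent was -0.89 for miR-25 and -0.41 for miR-21, the same direction. Between the subclones it was 0.74 and 0.78, and in subclone2 against the parent -0.15 and 0.37.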
